A study of Mus musculus with 8 samples.

Results

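The 35 genes described here make sterols and fatty acids or control their synthesis. They are the targets and regulators of the SREBP (sterol regulatory element binding protein) transcription factors, taken as a list of names from 52636 gene identifiers measured in mouse epiblast at embryonic day 5.5. All 35 were found by symbol and all passed the filter on low counts, which left 18321 genes for testing. By role, 19 are enzymes of the sterol pathway, 6 regulate SREBP or carry sterol, and 10 are enzymes of fatty acid synthesis and desaturation. The list does not hold every enzyme of the pathway.

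RNA was sequenced from 8 pools of 10 epiblasts, 2 for each combination of clone (4 or 8) and condition. All embryos had the genotype Sox2Cre;CRAFR26, from the line cRAFR26, in which ERK, the kinase at the end of the MAPK cascade, can be induced with 4-hydroxytamoxifen (4OHT). Sox2Cre drives recombination in the epiblast, the tissue that forms the body of the embryo. Embryos were kept in IVC2 medium in which 4OHT at 250 nM or its ethanol vehicle was added. The layers around the epiblast were dissected off before 7 ng of RNA per pool went into a low-input cDNA kit. The treatment label gives 4 h for both conditions, whereas the titles of the vehicle libraries give 0 h, so 4 h of culture may or may not be shared by the 2 conditions. The control embryos carry the same alleles as the treated ones. Each clone is a single clone, and nothing in the labels says whether replicate pools came from separate litters, so p-values measure the spread between these pools.

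Cells make cholesterol from acetyl-CoA through mevalonate, isoprenoid diphosphates, squalene and lanosterol, and make fatty acids from the same acetyl-CoA. When sterol in the endoplasmic reticulum falls, the escort protein SCAP carries SREBP to the Golgi, where it is cut and released to the nucleus. There it switches on most enzymes of both routes, while INSIG proteins hold SCAP back when sterol is plentiful. SREBP-2 is known mainly for sterol genes and SREBP-1 mainly for fatty acid genes, and both act together with the promoter factors NF-Y and SP1. In the early embryo, cholesterol is also the covalent partner of Hedgehog proteins, and defects of several late enzymes of the pathway are known to cause malformations.

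Promoter sequences are given for 5 members, to show what the sterol and fatty acid genes share upstream of their starts. RefSeq windows (GRCm38.p6, 250 bases before to 50 bases after a start) were found for 28 of the 35 members, with 37 windows in all. Hmgcs1 was the only member whose window held the letters TCACNCCAC, a form of the sterol regulatory element, on either strand. The other 4 were chosen after their values were seen: Msmo1 and Idi1 as sterol enzymes lower in clone 8, Ebp as the sterol enzyme called higher in clone 8 in vehicle, and Fasn as a fatty acid enzyme. Each line gives the 250 bases before the start, 5′ to 3′ on the gene's strand: chr13:119690101-119690350 on the plus strand for Hmgcs1, chr8:64733579-64733828 on the minus strand for Msmo1, chr13:8885356-8885605 on the plus strand for Idi1, chrX:8193513-8193762 on the minus strand for Ebp and chr11:120824548-120824797 on the minus strand for Fasn. Capitals mark TCACNCCAC and the NF-Y letters CCAAT, read on either strand (ATTGG is CCAAT on the other strand).
Hmgcs1: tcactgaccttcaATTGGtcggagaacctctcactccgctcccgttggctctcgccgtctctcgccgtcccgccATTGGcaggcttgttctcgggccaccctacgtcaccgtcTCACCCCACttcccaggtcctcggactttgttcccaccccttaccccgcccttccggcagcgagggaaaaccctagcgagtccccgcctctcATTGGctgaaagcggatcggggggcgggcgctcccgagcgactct
Msmo1: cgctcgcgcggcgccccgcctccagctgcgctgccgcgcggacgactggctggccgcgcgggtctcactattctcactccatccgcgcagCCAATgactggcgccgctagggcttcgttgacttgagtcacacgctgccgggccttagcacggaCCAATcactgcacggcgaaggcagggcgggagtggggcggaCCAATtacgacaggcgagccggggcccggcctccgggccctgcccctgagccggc
Idi1: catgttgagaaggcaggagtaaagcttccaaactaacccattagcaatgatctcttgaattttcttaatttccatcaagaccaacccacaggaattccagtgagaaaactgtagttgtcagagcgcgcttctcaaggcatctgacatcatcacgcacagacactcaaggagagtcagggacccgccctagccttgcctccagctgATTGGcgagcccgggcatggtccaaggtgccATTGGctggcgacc
Ebp: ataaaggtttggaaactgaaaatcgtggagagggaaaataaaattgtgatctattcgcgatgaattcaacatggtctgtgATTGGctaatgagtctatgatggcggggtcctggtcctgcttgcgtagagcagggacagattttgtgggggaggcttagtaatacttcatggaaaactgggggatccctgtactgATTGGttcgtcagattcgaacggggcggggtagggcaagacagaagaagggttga
Fasn: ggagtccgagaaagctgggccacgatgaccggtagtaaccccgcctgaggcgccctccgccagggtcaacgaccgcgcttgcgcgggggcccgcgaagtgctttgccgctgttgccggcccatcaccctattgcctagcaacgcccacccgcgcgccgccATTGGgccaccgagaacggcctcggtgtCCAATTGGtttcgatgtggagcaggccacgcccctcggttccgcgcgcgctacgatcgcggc

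In Hmgcs1 the element lay at -137 from the start, between CCAAT matches at -176 and -45. Msmo1 held CCAAT at -160, -96 and -55, and Ebp held it at -170 and -55. Of the 16 sterol enzymes with a window, 15 (93.8%) held CCAAT in at least 1 window, against 41.1% of all 27025 genes in the table and 42.7% of the tested genes. Regulators held it in 4 of 5 genes and fatty acid enzymes in 4 of 7 (57.1%). The GC box GGGCGG was in 14 of the 16 sterol enzymes (87.5%), against 65.5% of tested genes. The element TCACNCCAC was in 1.46% of tested genes, and the E-box CACGTG in 3 of 16 sterol enzymes and 11.4% of tested genes. These letters describe windows of fixed length and are not measured binding sites. Genes with several starts had several chances to hold a motif: the sterol enzymes had 1.19 windows per gene and all genes 1.22.

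Totals were 33.3 M to 38.0 M counts in the vehicle libraries and 56.4 M to 72.5 M in the 4OHT libraries (M, mega), and no member had fewer than 81 counts in any library. Levels are given as CPM, the counts of a gene per M counts of its library after scaling by TMM. Egr1, an immediate early gene downstream of ERK, ranged from 5.77 to 18.2 CPM in the 4 vehicle libraries. In the 4 4OHT libraries it ranged from 55.4 to 379 CPM, the highest in 4OHT clone 8 replicate 2. Summed with the other check genes, Esr1 and Xist, it came to 70.0 and 103.7 CPM in 4OHT clone 4. In 4OHT clone 8 that sum was 142.6 and 400.5 CPM. Since it includes Xist, the sum does not measure induction alone. The part of these uneven levels in the comparisons of the clones in 4OHT was not tested. The epiblast label was checked with 7 markers. They summed to 4967 to 5395 CPM in vehicle clone 4 and 5102 to 5186 in vehicle clone 8. In 4OHT the sums were lower, at 4259 to 4763 CPM in clone 4 and 4286 to 4303 in clone 8. Markers of the tissues that surround the epiblast were present too. The 13 visceral endoderm markers, none at 0, summed to 871 to 1264 CPM in vehicle clone 4, 1774 to 1866 in vehicle clone 8, 2958 to 3354 in 4OHT clone 4 and 909 to 1568 in 4OHT clone 8. The 11 extraembryonic ectoderm markers, none at 0, summed to 414 to 597, 176 to 210, 504 to 524 and 546 to 577 CPM in the same groups. In such bulk RNA, fewer cells of a type and less RNA per cell cannot be told apart.

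The pathway was well expressed in the epiblast pools. Divided by exonic length, the members had a median of 15.5 CPM per kb over the 8 libraries, against 1.91 for all tested genes with a length, and 34 of 35 lay above that value. The highest level per kb was that of Acly, which makes cytosolic acetyl-CoA from citrate (119 CPM per kb), followed by the acetoacetyl-CoA thiolase Acat2 (90.9), the desaturase Scd2 (56.8), Hmgcs1 (55.4) and Sqle (51.9). At the low end were the carboxylase Acaca (2.24 CPM per kb), the sterol reductase Tm7sf2 (2.22) and the acetyl-CoA synthetase Acss2 (0.432). Acly supplies acetyl units to both routes, and Acat2 makes the first condensation product of the sterol route.

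In clone 8 the pathway stood lower than in clone 4. Averaged over vehicle and 4OHT, 34 of the 35 members had a negative log2 fold change of clone 8 over clone 4, with a median of -0.48 beside 0.02 for all tested genes. All 19 sterol enzymes were on the lower side (median -0.55), as were all 6 regulators (median -0.34) and 9 of 10 fatty acid enzymes (median -0.48). Malic enzyme Me1, a source of NADPH, was the exception at 0.14. By the quasi-likelihood test of edgeR, none of the 35 had an adjusted p under 0.05, and 0% of all tested genes did. At an unadjusted p under 0.05 there were 22 of 35 members and 15.9% of all tested genes.

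**Figure D1:**
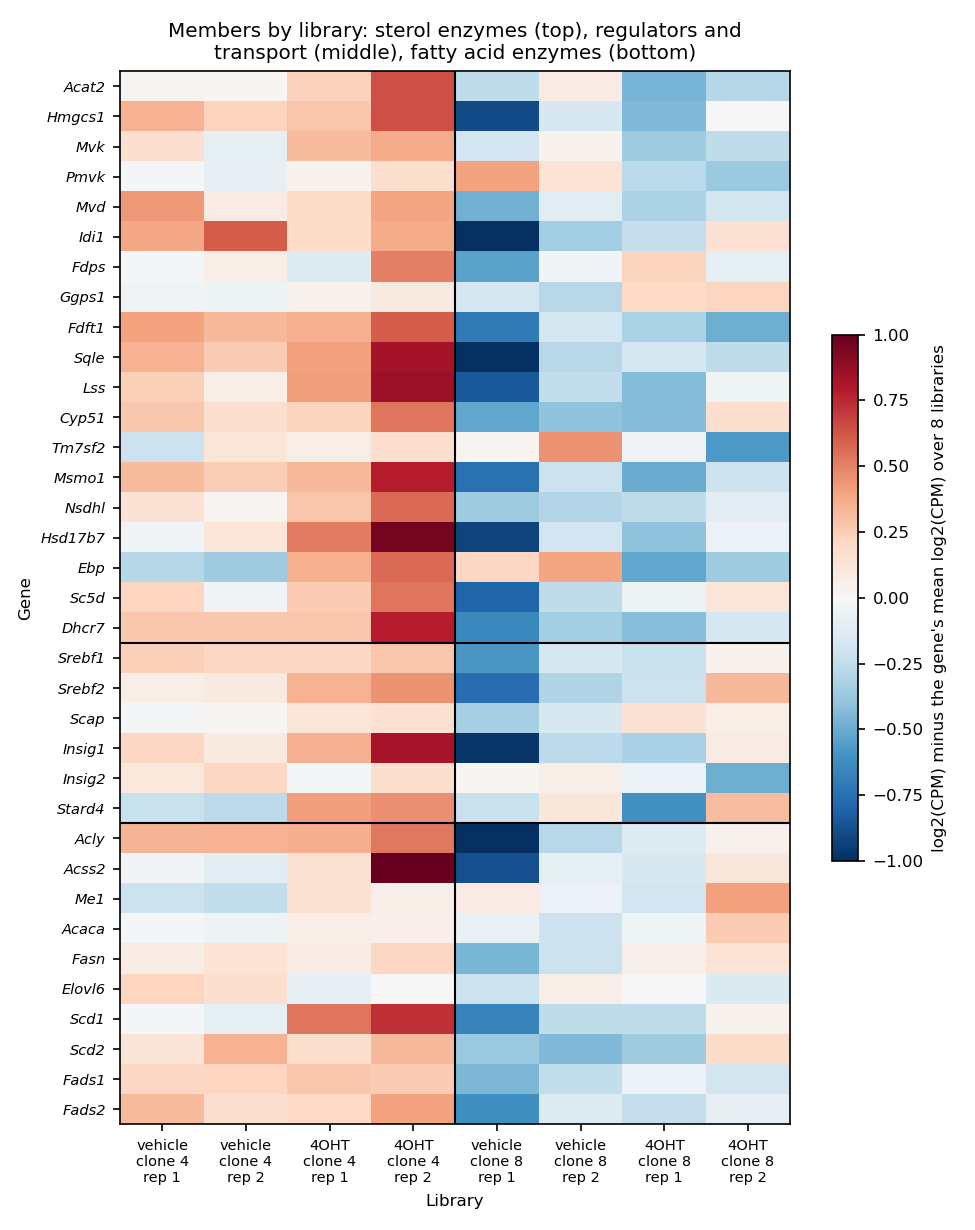
Each cell shows log2 CPM of a member in a library minus that gene's mean over the 8 libraries (rows, genes by role; columns, libraries, clone 4 on the left and clone 8 on the right). Most rows are above their mean in clone 4 and below it in clone 8, with vehicle clone 8 replicate 1 the lowest library for 24 of 35 members and 4OHT clone 4 replicate 2 the highest for 24.

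The libraries of the clones were also compared by rank. For 15 of the 35 members, all 4 clone 8 libraries lay below all 4 clone 4 libraries, and for 0 members did they all lie above. Among all tested genes, 4.84% were lower and 3.45% higher by that rule. The 15 were 10 of 19 sterol enzymes, 2 of 6 regulators and 3 of 10 fatty acid enzymes. Comparing the clones separately within vehicle and within 4OHT, which use different libraries, 12 sterol enzymes, 4 regulators and 4 fatty acid enzymes were lower without overlap in both conditions, against 7.99% of all tested genes. The 12 sterol enzymes were Hmgcs1, Mvd, Idi1, Fdft1, Sqle, Lss, Cyp51, Msmo1, Nsdhl, Hsd17b7, Sc5d and Dhcr7.

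Sqle, the epoxidase that commits squalene to sterols (ENSMUSG00000022351, mm10 chromosome 15, 59315077 to 59331192), differed most. Its CPM values were 341 and 321 in vehicle clone 4, 356 and 479 in 4OHT clone 4, 121 and 222 in vehicle clone 8, and 238 and 226 in 4OHT clone 8. Every clone 8 library was below every clone 4 library, with 374 ± 71.4 CPM in clone 4 and 202 ± 54.1 in clone 8 (SD, n = 4 each). The log2 fold change was -0.90 (SE 0.17, adjusted p = 0.193 by edgeR over all tested genes).

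The neighbours of Sqle on the pathway ran alongside it. Fdft1, squalene synthase, stood at 196, 186, 189 and 226 CPM in the clone 4 libraries and at 90.7, 131, 119 and 106 in those of clone 8. Its log2 fold change was -0.83 (SE 0.13, adjusted p = 0.193 by edgeR). Lanosterol synthase Lss was at 91.1 to 159 CPM in clone 4 and at 48.7 to 84.7 in clone 8, a log2 fold change of -0.77 (SE 0.17). For none of these 3 enzymes, which turn isoprenoid units into the first sterol, was a clone 8 value above any clone 4 value. The exons of Fdft1 share 18.3% of their bases with Ctsb on the other strand, so part of its count is uncertain where strand was not used.

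Upstream of squalene, Hmgcs1, which makes HMG-CoA (ENSMUSG00000093930, mm10 chromosome 13, 119690379 to 119708260), had 309, 283, 294 and 380 CPM in clone 4, against 130, 217, 179 and 243 in clone 8. The isomerase Idi1 was at 57.1, 66.6, 49.8 and 56.5 CPM in clone 4 and 20.4, 34.5, 37.2 and 48.3 in clone 8. The decarboxylase Mvd was at 79.3 to 102 CPM in clone 4 and at 53.7 to 69.4 in clone 8. Neither group overlapped the other for these 3 genes. Hmgcs1 shares 12.1% of its exonic bases with the predicted gene Gm48342 on the other strand. The kinases Mvk and Pmvk, which lie between Hmgcs1 and Mvd, did overlap between the clones, as did the isoprenoid diphosphate enzymes Fdps and Ggps1. Log2 fold changes of these genes ran from -0.38 (Mvk) to -0.02 (Ggps1). Fdps shares 26.7% of its exonic bases with a predicted gene on the same strand, Gm43738, and its level is uncertain.

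After lanosterol, the methyl oxidase Msmo1 stood at 179, 170, 180 and 248 CPM in clone 4 and 85.6, 124, 102 and 125 in clone 8, without overlap. Dhcr7, the reductase that completes cholesterol and whose loss causes Smith-Lemli-Opitz syndrome, was at 59.0, 59.0, 59.3 and 84.2 CPM in clone 4 and 31.3, 38.7, 36.4 and 43.3 in clone 8. Hsd17b7 and Nsdhl, which act with Msmo1 to remove methyl groups, had log2 fold changes of -0.77 and -0.51 and did not overlap either. The clone 4 value of Msmo1 and Dhcr7 that stands above the other 3 is 4OHT replicate 2 in each case. Cyp51 and Sc5d had overlapping libraries over the 2 conditions together, with Cyp51 at 166 to 215 CPM in clone 4 and 104 to 166 in clone 8.

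Of the regulators, Insig1 and Srebf1 did not overlap between the clones. Insig1, itself an SREBP target that restrains the pathway, had values of 93.3 to 156 CPM in clone 4 against 44.7 to 93.0 in clone 8 (log2 fold change -0.72, SE 0.18, adjusted p = 0.193). Srebf1 (SREBP-1) was at 93.6 to 98.3 CPM in clone 4 and at 54.3 to 83.4 in clone 8. Srebf2 (SREBP-2) was at 234, 238, 285 and 305 CPM in clone 4, against 132, 181, 193 and 280 in clone 8, where 4OHT replicate 2 reached into the range of clone 4. Scap, Insig2 and the sterol carrier Stard4 overlapped.

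Among fatty acid enzymes, Acly (ENSMUSG00000020917, mm10 chromosome 11, 100476353 to 100528000) had the largest difference. Clone 4 had 753, 758, 766 and 858 CPM, and clone 8 had 259, 492, 545 and 612 (log2 fold change -0.75, SE 0.19, adjusted p = 0.195 by edgeR). The desaturases of polyunsaturated fatty acids, Fads1 and Fads2, also did not overlap, with Fads1 at 67.9 to 71.0 CPM in clone 4 and 43.1 to 56.7 in clone 8. The chain-building enzymes differed less: Fasn was at 398 to 437 CPM in clone 4 and 276 to 418 in clone 8, and Elovl6 at 93.8 to 115 and 85.4 to 104. Within the fatty acid list, over the 2 conditions together, the clones thus separated at Acly, Fads1 and Fads2 and overlapped at the 7 other members. The log2 fold changes of those 7 ran from -0.56 (Scd1) to 0.14 (Me1), with Scd2 at -0.48. Scd1 was lower in clone 8 without overlap within each condition, and Scd2 in vehicle only.

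**Figure D2:**
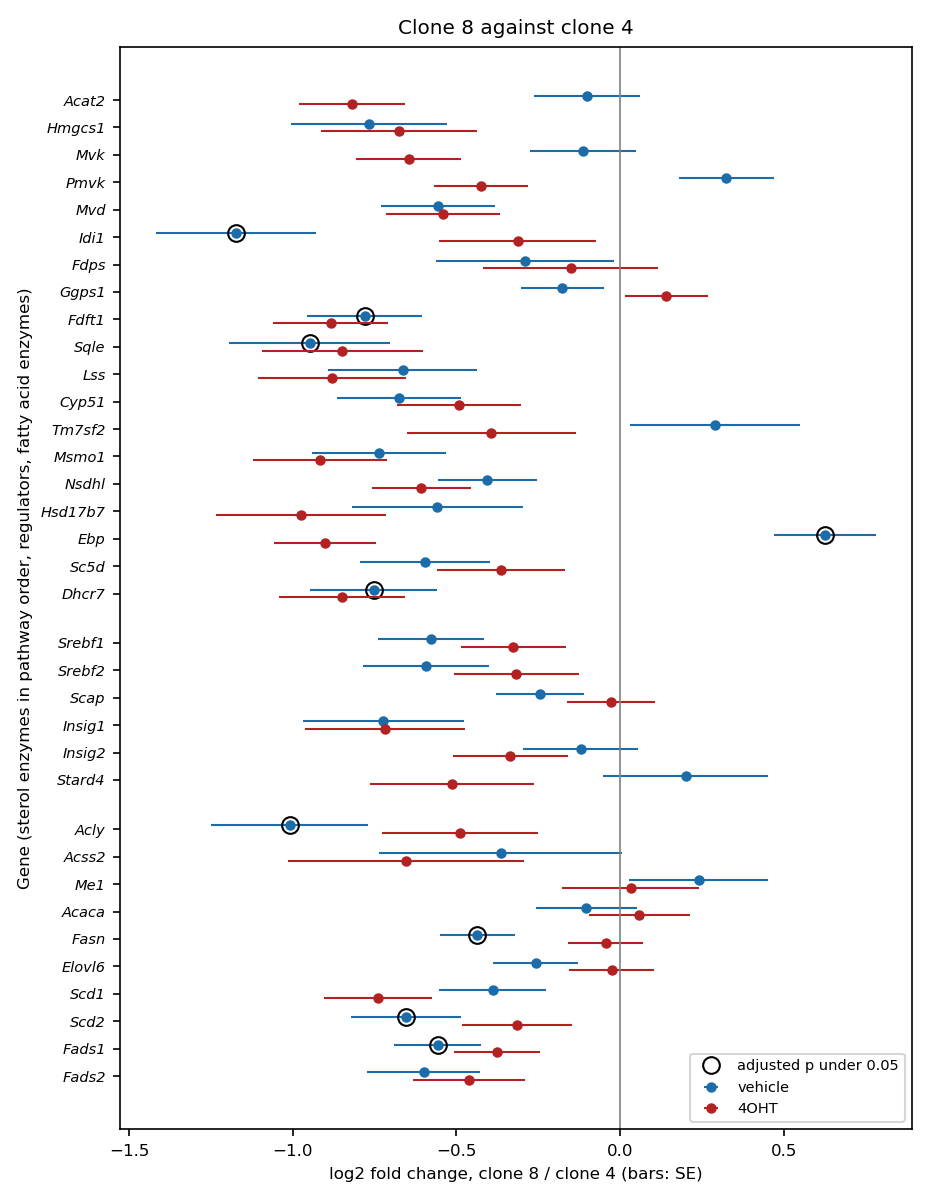
Log2 fold change of clone 8 over clone 4 for each member in vehicle (blue) and in 4OHT (red), with bars of 1 SE from the edgeR fit and rings where the adjusted p was under 0.05. Most points lie left of 0 in both conditions. Ebp is at 0.63 in vehicle and -0.90 in 4OHT.

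In vehicle alone, 9 of the 35 members passed an adjusted p of 0.05 by edgeR, against 8.37% of all tested genes, and 21 had an unadjusted p under 0.05, against 25.7%. In 27 members both clone 8 libraries lay below both clone 4 libraries, against 29.2% of all tested genes, and in 4 both lay above (Pmvk, Ebp, Stard4 and Me1), against 29.7%. In the lower direction 8 members fell, against 4.31% of all tested genes: Idi1 (log2 fold change -1.17, SE 0.24, adjusted p = 0.028), Fdft1 (-0.78), Sqle (-0.95), Dhcr7 (-0.75), Acly (-1.01), Fasn (-0.44), Scd2 (-0.65) and Fads1 (-0.56), with adjusted p-values up to 0.049. Ebp was the only member that rose (0.63, adjusted p = 0.043), against 4.06% of all tested genes. The count fell to 0 when either vehicle clone 4 library, either 4OHT clone 4 library or vehicle clone 8 replicate 1 was left out (0% to 2.45% of all tested genes), and rose to 15 when either 4OHT clone 8 library was left out, fits in which 13.3% of all tested genes were called. It was 5 with library totals (7.08% of all tested genes) and 19 with no expression filter (9.37%). By DESeq2 it was 19 (22.4% of the genes to which it gave an adjusted p). Medians by role in vehicle were -0.56 for sterol enzymes, -0.41 for regulators and -0.41 for fatty acid enzymes. They were -0.37, -0.27 and -0.25 without vehicle clone 8 replicate 1, and -0.74, -0.55 and -0.60 without vehicle clone 8 replicate 2. Without the same libraries Sqle was at -0.57 and -1.43, and Acly at -0.61 and -1.53.

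In 4OHT alone, 18 of 19 sterol enzymes were on the lower side in clone 8 with a median of -0.65, the exception being Ggps1 at 0.14, which makes the geranylgeranyl group for protein prenylation. Regulators had a median of -0.33 (-0.17 without 4OHT clone 8 replicate 1, -0.55 without 4OHT clone 8 replicate 2) and fatty acid enzymes of -0.35 (-0.21 without 4OHT clone 4 replicate 2). None of the 35 was called by edgeR, against 0.202% of all tested genes (0.06% higher, 0.142% lower), while 18 had an unadjusted p under 0.05, against 18% of all tested genes. Both clone 8 libraries lay below both clone 4 libraries for 27 members, against 24.2% of all tested genes, and above them for Ggps1, against 23.7%. The lowest adjusted p was 0.062, for Ebp at -0.90 (SE 0.16). Without 4OHT clone 8 replicate 2 the count was 6 (3.72% of all tested genes), and it was 11 by DESeq2 (5.49% of all tested genes) and 17 with no expression filter (4.57%). For the average over both conditions, DESeq2 called 17 members, all lower, against 5.02% of the genes to which it gave an adjusted p, and edgeR with no expression filter called 19, against 3.03%.

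The markers of surrounding tissues differed between the clones as well, and not in 1 direction. In vehicle the visceral endoderm markers were higher in clone 8 (median log2 fold change 1.41, 7 of 13 called, against 8.37% of all tested genes). In 4OHT they were lower (median -1.57, 2 of 13 called, against 0.202%). The extraembryonic ectoderm markers had medians of -1.31 in vehicle and 0.08 in 4OHT. Of these, 7 of 11 were called in vehicle, all lower in clone 8 (4.31% of all tested genes were), and 0 in 4OHT. The sterol enzymes had medians of -0.56 and -0.65 in the same conditions. The part of these tissues in the levels of the members, singly or as lists, was not tested.

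The treatment comparison asks whether the pathway changed with 4OHT, which induces ERK in this line. No library came from embryos without the inducible alleles. Effects of induced ERK and of 4OHT itself therefore cannot be told apart. Averaged over both clones, 31 of 35 members were on the higher side after 4OHT, with medians of 0.23 for sterol enzymes, 0.28 for regulators and 0.20 for fatty acid enzymes, beside 0.04 for all tested genes. Without vehicle clone 8 replicate 1 the sterol median was 0.11, and without 4OHT clone 8 replicate 2 the fatty acid median was 0.13. None was called by edgeR, against 0.00546% of all tested genes. Unadjusted, 7 members had a p under 0.05, against 16.9% of all tested genes. DESeq2 called 1, the stearoyl-CoA desaturase Scd1, against 7.88% of the genes to which it gave an adjusted p. Among the members, Ggps1 and Scap had all 4 4OHT libraries above all 4 vehicle libraries, 2 of 35 against 3.42% of all tested genes, and 0 members had them all below, against 5.58%. Scap shares 13.2% of its exonic bases with a gene on the other strand, so its count is uncertain in part. All 7 epiblast markers were on the lower side after 4OHT (median -0.265). For 3 of them all 4OHT libraries lay below all vehicle libraries, against 5.58% of all tested genes. Their part in the levels of the members was not tested.

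Within clone 4, 32 of 35 members were on the higher side after 4OHT, with a median of 0.28 for sterol enzymes, 0.23 for regulators and 0.08 for fatty acid enzymes, and none was called by edgeR against 0.0382% of all tested genes. Without 4OHT clone 4 replicate 1 the sterol and fatty acid medians were 0.44 and 0.13, and without 4OHT clone 4 replicate 2 they were 0.08 and 0.04. At an unadjusted p under 0.05 there were 6 members, against 9.9% of all tested genes. DESeq2 called Ebp and Scd1, against 3.16% of the genes to which it gave an adjusted p. In 22 of 35 members both 4OHT libraries lay above both vehicle libraries, against 23.7% of all tested genes, and in 2 (Idi1 and Elovl6) both lay below, against 23.8%. Scd1, which makes oleate from stearate, stood at 99.6 and 94.5 CPM in vehicle and at 146 and 168 in 4OHT (log2 fold change 0.69, SE 0.16, adjusted p = 0.166). The sterol carrier Stard4 was at 64.3 and 62.8 CPM in vehicle and 101 and 103 in 4OHT. Of the 2 4OHT libraries, replicate 2 was the higher for 19 of 19 sterol enzymes, by a median ratio of 1.22. It also had the higher visceral endoderm sum (3354 against 2958 CPM). All 13 visceral endoderm markers had both 4OHT libraries above both vehicle libraries, against 23.7% of all tested genes. Their median log2 fold change was 2.15, and edgeR called 2 of the 13, against 0.0382% of all tested genes. Their part in the response of the members was not tested.

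Within clone 8, 28 of 35 members were on the higher side after 4OHT. By edgeR 4 were called (11.4%), fewer in share than the 16.6% of all tested genes, of which 2 rose (8% of all tested genes) and 2 fell (8.6%). Unadjusted, 9 members had a p under 0.05, against 33.2%. The isomerase Ebp (log2 fold change -0.74, SE 0.16, adjusted p = 0.017) and the kinase Pmvk (-0.60, SE 0.15, adjusted p = 0.027) fell. Fasn, the fatty acid synthase (0.43, SE 0.11, adjusted p = 0.035), and Ggps1 (0.43, SE 0.13, adjusted p = 0.049) rose. Fasn stood at 276 and 326 CPM in vehicle and 392 and 418 in 4OHT, beside 398 to 437 CPM in the 4 clone 4 libraries. Ggps1 went from 43.7 and 40.6 CPM to 56.5 and 57.0. The call of Ggps1 was lost when any 1 of the 8 libraries was left out (adjusted p 0.0831 to 0.198), and that of Ebp without vehicle clone 8 replicate 1 (0.0951) or 2 (0.0554). That of Pmvk was lost without vehicle clone 8 replicate 1 (0.173) or 4OHT clone 8 replicate 2 (0.0718). That of Fasn was lost without those libraries (0.254 and 0.107) and without any 1 of the 4 clone 4 libraries (0.0567 to 0.0883).

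**Figure D3:**
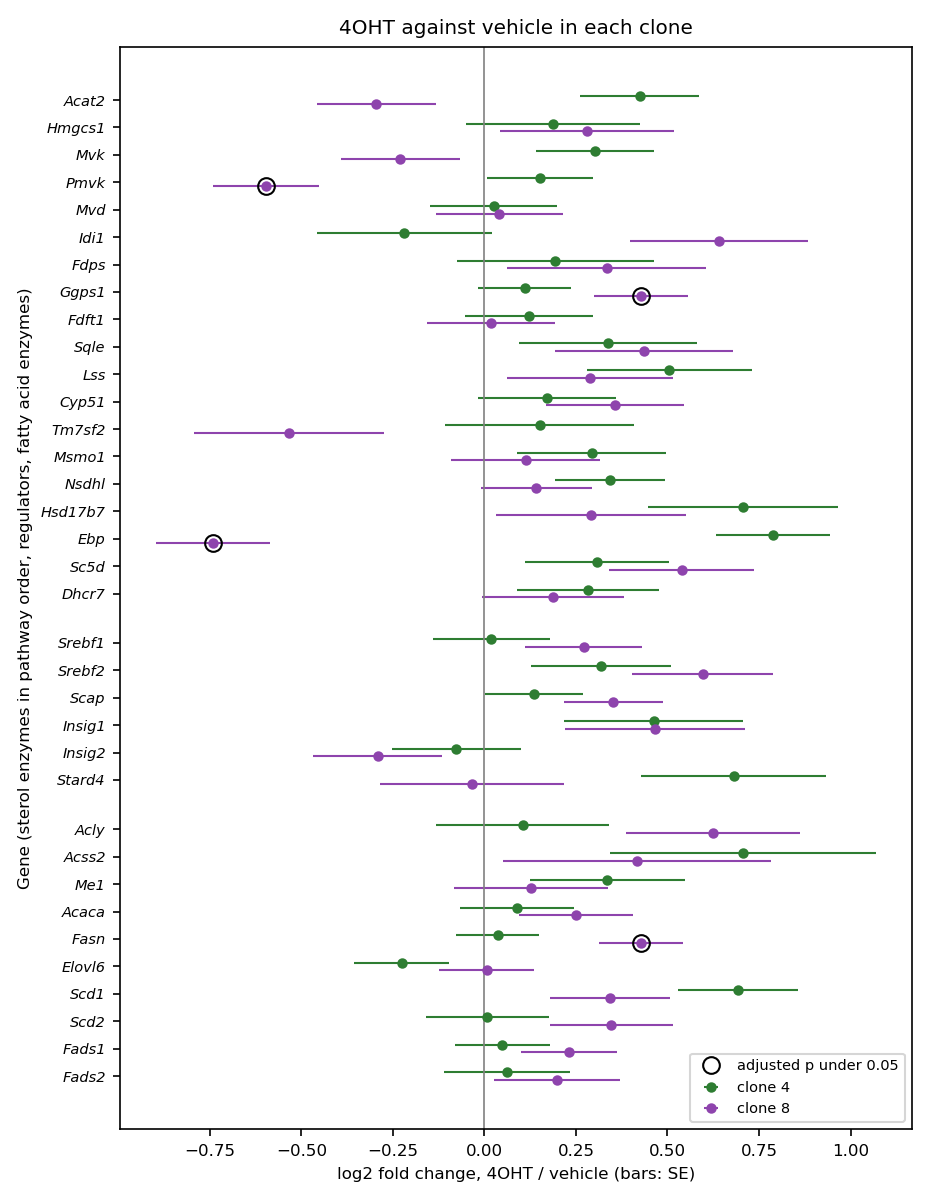
Log2 fold change of 4OHT over vehicle for each member in clone 4 (green) and clone 8 (purple), with bars of 1 SE from the edgeR fit and rings where the adjusted p was under 0.05. The rings are Pmvk and Ebp below 0 and Ggps1 and Fasn above 0, all in clone 8.

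All 10 fatty acid enzymes were on the higher side in clone 8, with a median of 0.30, and the sterol enzymes had a median of 0.19. The fatty acid median was 0.15 without vehicle clone 8 replicate 1 or 4OHT clone 8 replicate 2, and 0.43 without 4OHT clone 8 replicate 1. Idi1 was at 20.4 and 34.5 CPM in vehicle and at 37.2 and 48.3 in 4OHT, and Acly at 259 and 492 and then 545 and 612, with adjusted p-values of 0.0995 for Idi1 and 0.102 for Acly by edgeR. The low vehicle values come from replicate 1. Without that library the clone 8 count was 0 (0% of all tested genes) and the sterol median -0.05. The count was 1 without 4OHT clone 8 replicate 2 (11.5%), 2 without any 1 of the 4 clone 4 libraries (8.89% to 10.5%), 6 without vehicle clone 8 replicate 2 (11.6%) or 4OHT clone 8 replicate 1 (17%), 0 when clone 8 was fitted alone (0.0171% of all tested genes), 8 by DESeq2 (26.4%) and 10 with no expression filter (13.8%). Libraries did not overlap in the higher direction for 13 members, against 31.7% of all tested genes, and in the lower direction for 6, against 28.3%. In this comparison the visceral endoderm markers had a median of -1.06 (7 of 13 called by edgeR). The median was 1.65 for extraembryonic ectoderm markers (7 of 11 called) and -0.44 for epiblast markers (3 of 7), against 16.6% of all tested genes. The part of these tissues in the response of the members was not tested.

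Ebp had the largest difference of responses among the members. This X-linked enzyme (ENSMUSG00000031168, mm10 chromosome X, 8185329 to 8193512) isomerises a sterol ring double bond late in the pathway. Its CPM values were 30.3 and 28.8 in vehicle clone 4, 47.3 and 54.7 in 4OHT clone 4, 42.6 and 48.7 in vehicle clone 8, and 25.8 and 28.8 in 4OHT clone 8. The 2 high groups and the 2 low groups did not overlap. Its response differed between the clones by -1.53 on the log2 scale (clone 8 minus clone 4, SE 0.22, adjusted p = 0.0232 by edgeR), and it was the only member called in that comparison, against 2.83% of all tested genes (1.75% in that direction). Unadjusted, 6 members had a p under 0.05, against 22.7%. The call was lost without either vehicle clone 4 library, either 4OHT clone 4 library or vehicle clone 8 replicate 1 (difference -1.65 to -1.42). DESeq2 called 3 members (11.7% of the genes to which it gave an adjusted p). The fit with no expression filter called 5 (6.83% of the genes it tested).

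The level of Ebp was high in the groups where the visceral endoderm sum was high. That sum was 2958 to 3354 CPM in 4OHT clone 4 and 1774 to 1866 in vehicle clone 8, against 871 to 1264 in vehicle clone 4 and 909 to 1568 in 4OHT clone 8. The defining markers Amn and Cubn ran from 54.5 to 339 and from 30.1 to 205 CPM over the 8 libraries. In the test of the difference of responses, the 13 visceral endoderm markers had a median of -2.99, with 7 called, against 2.83% of all tested genes. Their part in the Ebp result was not tested. The 4 Y-linked genes summed to 3.64 CPM in 4OHT clone 4 replicate 2 and to 51.6 to 133 CPM in the other 7 libraries. 4OHT clone 4 replicate 2 was also the highest library for 24 of 35 members. The part of its low Y-linked sum in the levels of the members, X-linked or not, was not tested either. The second X-linked member, Nsdhl, stood at 44.4 to 64.7 CPM in clone 4 and 34.2 to 40.5 in clone 8 and did not follow Ebp.

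**Figure D4:**
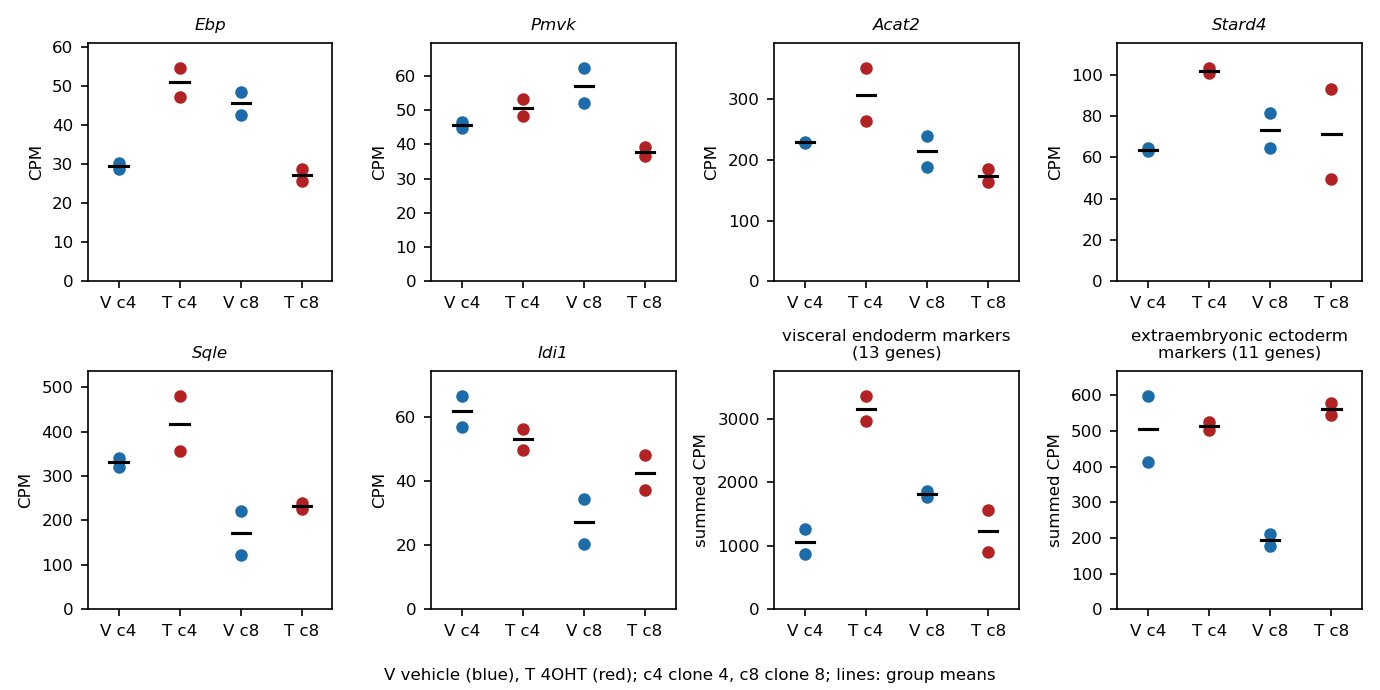
CPM of 6 members and summed CPM of 2 marker lists in each library (points) with group means (lines), for vehicle (V, blue) and 4OHT (T, red) in clone 4 (c4) and clone 8 (c8). Ebp and the visceral endoderm markers are high in T c4 and V c8, whereas Sqle and Idi1 are lower in both clone 8 groups.

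Another 5 members had a response of opposite sign in the clones, positive in clone 4 and negative in clone 8: Mvk, Pmvk, Tm7sf2, Acat2 and Stard4. Tm7sf2 shares 12.1% of its exonic bases with Vps51 on the same strand, so its level is uncertain. For Pmvk, clone 4 had 46.7 and 44.7 CPM in vehicle, then 48.3 and 53.2 in 4OHT, whereas clone 8 had 62.3 and 52.1, then 39.2 and 36.5. For Acat2, clone 4 had 230 and 229 CPM in vehicle, then 264 and 351 in 4OHT, whereas clone 8 had 189 and 239, then 163 and 185. The difference of responses was -0.75 for Pmvk (adjusted p = 0.083) and -0.72 for Acat2 (adjusted p = 0.117), and neither was called by edgeR. The part of the visceral endoderm markers in the responses of these 5 members was not tested. None of the fatty acid enzymes showed that combination of signs: 9 of 10 were positive in both clones and Elovl6 was negative in clone 4 and 0.01 in clone 8. Idi1 had the reverse combination, with -0.22 in clone 4 and 0.64 in clone 8 (difference 0.86, adjusted p = 0.181).

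Sterol and fatty acid enzymes were set against each other as the mean log2 CPM of each list in each library. The sterol mean was 6.12 in vehicle clone 4, 5.68 in vehicle clone 8, 6.38 in 4OHT clone 4 and 5.78 in 4OHT clone 8. The fatty acid mean was 6.43, 5.995, 6.60 and 6.30 in the same groups. Clone 8 was therefore lower on both lists in vehicle by about the same amount, and in 4OHT the fatty acid list was nearer to clone 4 than the sterol list was.

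The difference of the means, sterol minus fatty acid, put numbers on this. It was -0.29 and -0.33 in the vehicle clone 4 libraries, -0.37 and -0.27 in vehicle clone 8, -0.29 and -0.15 in 4OHT clone 4 and -0.48 and -0.57 in 4OHT clone 8. The 2 libraries of 4OHT clone 8 lay below the other 6. Between the clones the difference was -0.01 in vehicle and -0.30 in 4OHT, beside a pooled replicate SD of 0.069. No test was made of this score, since the members were chosen with results of these data known. The value in vehicle is 0.01 without vehicle clone 4 replicate 1 and 0.04 without vehicle clone 8 replicate 1, and that in 4OHT ranged from -0.37 to -0.23 when single libraries were left out.

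**Figure D5:**
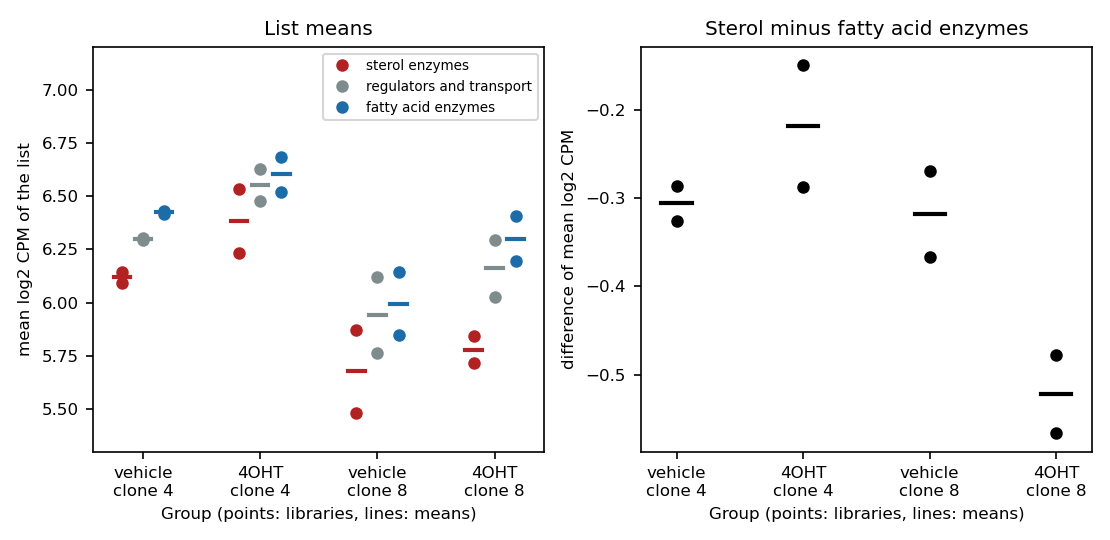
Left, mean log2 CPM of the sterol enzymes (red), regulators (grey) and fatty acid enzymes (blue) in each library (points) with group means (lines). Right, sterol minus fatty acid mean, where the 4OHT clone 8 libraries, at -0.48 and -0.57, lie below the other 6.

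Among the sterol enzymes, replicates were furthest apart in vehicle clone 8. There the replicates differed by a median ratio of 1.34 over the sterol enzymes (1.04 to 1.83), and replicate 2 was the higher for 17 of 19. In vehicle clone 4 the median ratio was 1.08, and replicate 2 was the higher for 5 of 19. Fatty acid enzymes had median ratios of 1.20 in vehicle clone 8 and 1.04 in vehicle clone 4. The member with the widest span over the 8 libraries was Sqle, whose highest library was 3.95 times its lowest, followed by Hsd17b7 and Acss2 (3.68 each). The narrowest were Elovl6 (1.35), Acaca (1.38), Scap (1.40) and Ggps1 (1.40), none of which takes part in the steps from squalene to cholesterol.

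Other genes around the pathway were taken from 4 further lists: SREBP processing (8 genes), sterol transport and efflux (14, of which 13 were tested), fatty acid metabolism (14) and isoprenoid branches (8). Over both conditions, 13 of the 14 fatty acid metabolism genes were on the lower side in clone 8 (median -0.30) and 6 of them did not overlap, against 4.84% of all tested genes in that direction. The isoprenoid branches had 4 higher and 4 lower, with a median of -0.02. The processing genes had a median of -0.18 and the transport genes of -0.14. None of the 43 was called by edgeR, as was 0% of all tested genes, and 19 had an unadjusted p under 0.05, against 15.9%.

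In vehicle, 4 of these 43 genes (9.30%) were called between the clones, beside 8.37% of all tested genes. The elongase Elovl5 was lower in clone 8, at 88.7 and 107 CPM against 146 and 141 in clone 4 (log2 fold change -0.55, adjusted p = 0.034). The oxysterol-binding protein gene Osbp was higher, at 9.09 and 7.71 CPM against 2.27 and 1.67 (log2 fold change 2.09, adjusted p = 0.014), as was the sterol transporter Gramd1b, at 11.3 and 13.3 against 5.38 and 4.08 (1.38, adjusted p = 0.025). Nus1, a subunit of the enzyme that makes dolichol, was higher by 0.64 (adjusted p = 0.044). Osbp and Gramd1b were also the only genes of these lists called in the difference of responses (4.65% of the 43, beside 2.83% of all tested genes), at -2.24 (adjusted p = 0.033) and -2.06 (adjusted p = 0.035). In 4OHT, Gramd1b had 9.76 and 11.8 CPM in clone 4 but 5.49 and 7.91 in clone 8, so that, as for Ebp, its levels were highest in the groups with the higher visceral endoderm sums, whose part was not tested. Osbp was high in vehicle clone 8 alone, with 3.25 and 3.17 CPM in 4OHT clone 4 and 2.70 and 3.07 in 4OHT clone 8.

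In the response of clone 8, 7 genes of these lists were called. The ubiquitin ligase gene Rnf145 (0.64, adjusted p = 0.018), the sterol transporter Gramd1a (1.23, adjusted p = 0.013), the acyl-CoA synthetase Acsl3 (0.62, adjusted p = 0.017) and Elovl5 (0.45, adjusted p = 0.039) rose. Osbp (-1.54, adjusted p = 0.011), the lysosomal sterol-binding protein gene Npc2 (-0.68, adjusted p = 0.020) and the enoyl-CoA reductase Tecr (-0.58, adjusted p = 0.017) fell. In the response of clone 4 none of these genes was called by edgeR (0.0382% of all tested genes were), and 9 had an unadjusted p under 0.05, against 9.9% of all tested genes. The 7 calls are 16.3% of the 43 genes, beside 16.6% of all tested genes.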

How the data were processed

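The deposited table holds raw read counts per Ensembl gene, 1 column per library, as its whole numbers and differing totals show. Alignment with STAR 2.5.3a to mm10 after bcl2fastq 2.19.1 is named in the submitters' processing notes; how reads were counted, with which annotation and whether by strand, is not given in the sources used here. Symbols matched 52403 of 52636 identifiers. Positions and exonic lengths came from GENCODE M21, which shares the mm10 build.

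Tests ran on the deposited counts in R 4.3.3 with edgeR 4.0.16: filterByExpr (minimum count 10), TMM scaling, glmQLFit and glmQLFTest, and Benjamini-Hochberg adjustment over 18321 genes, with calls at an adjusted p under 0.05. For averages over conditions or clones, clone and treatment were additive terms in a model of the 8 libraries. Every other comparison was a contrast in a model with 1 mean per group, where the dispersion is pooled over the 4 groups. List means used log2 CPM with a prior count of 2. Alternatives were RLE factors, library totals, other filters, DESeq2 1.42.0, a replicate block, fits of 1 clone or condition, and leaving out each library. Every share printed beside DESeq2 calls is of the genes to which DESeq2 gave an adjusted p.

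On simulated counts, the additive fit recovered 49 of 100 genes with a log2 clone difference of 1, and 68 of 100 with 2. For contrasts of 2 groups it was 26 to 32 and 55 to 58 of 100, and for the difference of responses 7 and 42. Counts were drawn with the dispersion of the fit of the 4 groups (square root 0.266, against 0.321 in the additive fit). The recovery of the additive fit was simulated without a difference of responses. Changed genes were drawn from all levels, so these numbers do not give the power for the members. The members, the gene lists and the rule for naming genes were chosen with earlier results of these data known. All members could be named, with full values for those with the lowest p or without overlap between groups.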

Additional observations from a re-analysis of the deposited data

Results flagged for a closer look

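In 140 sets of 4 libraries (each member within a clone or a condition), 9 held a library far from the other 3, with a gap above 0.829 of the range. About 7 would be expected if the sets were independent and each came from 1 normal distribution. These sets mix groups and share libraries, so that number is only a rough guide. In the clone 4 libraries, 4OHT replicate 2 stood above the rest for Msmo1 (248 CPM, others 170 to 180), Dhcr7 (84.2, others 59.0 to 59.3), Acly (858, others 753 to 766) and Acss2 (8.30, others 3.84 to 4.59). In the clone 8 libraries, vehicle replicate 1 stood below the rest for Sqle (121 CPM, others 222 to 238), and 4OHT replicate 2 stood above them for Cyp51 (166, others 104 to 112) and Scd2 (344, others 224 to 237). In the vehicle libraries, Stard4 was high in clone 8 replicate 2 (81.5 CPM, others 62.8 to 64.6), and Acss2 was low in clone 8 replicate 1 (2.26, others 3.84 to 4.07).

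The response of Ebp to 4OHT differed between the clones by -1.53 on the log2 scale (clone 8 minus clone 4, adjusted p = 0.0232 by edgeR).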

How the results depend on the processing

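The number of the 35 members called depended on the processing, and the cause was not tested except where fewer genes or samples enter by construction. Without an expression filter it was 19 for the clones over both conditions, 19 in vehicle and 17 in 4OHT, and 5 (4.32% of all tested genes), 5 (2.35%), 10 and 5 for the response over both clones, in clone 4, in clone 8 and its difference. DESeq2 gave 17, 19, 11, 1, 2, 8 and 3 in that order. Library totals gave 5 for the clones in vehicle, the filter of 10 counts in every library gave 1 for the clones in 4OHT (1.07% of all tested genes), and the mean of the contrasts in the fit of the 4 groups gave 1 for the response over both clones (5.8%). Clone 4 fitted alone gave 2 (1.18%) and clone 8 alone 0. Leaving out 1 library at a time gave 0 to 0 for the clones over both conditions, 0 to 15 in vehicle and 0 to 6 in 4OHT, and 0 to 0, 0 to 1, 0 to 6 and 0 to 2 for the response over both clones, in clone 4, in clone 8 and its difference.

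The sterol minus fatty acid difference between the clones ranged from -0.19 to -0.12 over both conditions, from -0.06 to 0.04 in vehicle (0.01 without vehicle clone 4 replicate 1, 0.04 without vehicle clone 8 replicate 1) and from -0.37 to -0.23 in 4OHT. Its response ranged from 0.02 to 0.16 in clone 4 and from -0.25 to -0.15 in clone 8. The sterol median of the clone 8 response ranged from -0.05 (without vehicle clone 8 replicate 1) to 0.34. Medians of the difference of responses ranged from -0.33 to 0.08 for sterol enzymes, turning sign with 2 libraries (0.08 without vehicle clone 8 replicate 2, 0.07 without 4OHT clone 4 replicate 2) and from -0.12 to 0.32 for regulators, turning sign with 3 (-0.12 without vehicle clone 8 replicate 1, -0.01 without 4OHT clone 4 replicate 1, -0.02 without 4OHT clone 8 replicate 2). Deviations of same-numbered replicates correlated between groups at -0.030 to 0.095. With 2 replicates per group, these values cannot tell whether same-numbered libraries shared a litter or batch. With the replicate number as a block, 15 members were called between the clones in vehicle (8.63% of all tested genes) and 5 in the clone 8 response (16.3%).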
